A study of Homo sapiens with 12 samples.

Results

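The IL-6 family cytokines, their receptors, STAT3 and the SOCS inhibitors were followed in WI-38 cells, a line of normal human lung fibroblasts, cultured with or without TGF-β. The 9 genes were chosen by symbol and function, with earlier results of these data known, from the 25702 genes listed in the count table: the ligands IL6, IL11 and LIF, the receptors IL6ST, LIFR and OSMR, the transcription factor STAT3, and the inhibitors SOCS2 and SOCS3. RNA was sequenced from 3 flasks in each of 4 conditions, namely untreated cells on day 1 (D1), cells with TGF-β on day 1 (D1+ TGF-β), untreated cells on day 20 (D20) and cells with TGF-β on day 20 (D20+ TGF-β). The labels give passages 2 to 3 for the D1 and D1+ TGF-β cells and passages 5 to 6 for the D20 and D20+ TGF-β cells, so that time and passage cannot be told apart. All cells came from 1 line and were grown in medium with serum. The flasks for D20 were seeded from 1 untreated flask and those for D20+ TGF-β from 1 treated flask, so that the p-values measure the spread between flasks that share a source.

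Cytokines of the IL-6 family signal through receptor complexes that share the chain gp130, the product of IL6ST. IL-6 and IL-11 bind their own α receptors before they join gp130, LIF brings gp130 together with LIFR, and oncostatin M brings it together with OSMR or LIFR. The bound receptors activate Janus kinases, which phosphorylate STAT3. STAT3 then enters the nucleus and induces, among other genes, SOCS3, whose product binds gp130 and dampens the signal. In fibroblasts the family is known for its part in inflammation and in the production of matrix, and IL11 is a well known TGF-β target gene. The RNA levels given here do not measure secreted cytokine or phosphorylated STAT3.

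Total counts per library were between 8674488 and 18286197. Levels are given as cpm, counts scaled to a library total of 1000000 after adjustment by TMM factors, and as mean ± SD of 3 flasks. The 8 fibroblast markers examined, COL1A1 and THY1 among them, were above the expression filter. The 4 myofibroblast markers ACTA2, TAGLN, CNN1 and MYL9 summed to between 1508 and 2264 cpm at D1, 3433 and 3674 at D1+ TGF-β, 2241 and 2317 at D20 and 1923 and 2160 at D20+ TGF-β, so that the sum at D20+ TGF-β was not above that at D20. Of the 4 endothelial markers, CDH5 had no count and TEK held nearly all of the sum. That sum was between 45.4 and 78.7 cpm at D1, 34.3 and 39.9 at D1+ TGF-β, 219 and 246 at D20 and 76.3 and 149 at D20+ TGF-β. Through TEK it moved with LIFR, OSMR, STAT3 and SOCS3 between untreated conditions. It was also lower with TGF-β on both days without overlap of flasks, as were LIFR, STAT3 and SOCS3, and OSMR at D20. VWF and PECAM1 were not shown to be higher at D20 than at D1 (log2 -0.29 ± 0.37 and -0.61 ± 1.19 without a gene filter). The part of TEK in the results of LIFR, OSMR, STAT3 and SOCS3 was not tested. The 5 epithelial markers summed to at most 35.8 cpm and the 5 leukocyte markers to at most 61.8 cpm in any library. Among the latter CD3E and LYZ had no count, CD68 held most of the sum, and CD14, a marker of monocytes, had 5.33, 5.81 and 6.19 cpm at D20 and at most 0.522 in the flasks of the other conditions. The leukocyte sum was between 50.4 and 61.8 cpm at D1, 39.2 and 40.7 at D1+ TGF-β, 52.7 and 58.8 at D20 and 37.9 and 47.4 at D20+ TGF-β. It thus did not rise with CD14 from D1 to D20, and it was lower with TGF-β on both days. CD14 was higher at D20 than at D1 (log2 3.91 ± 0.37, adjusted p = 3.44e-09 without a gene filter and 1.80e-06 with filterByExpr, a milder filter of edgeR) and lower at D20+ TGF-β than at D20 (log2 -4.06 ± 0.38, adjusted p = 3.25e-09 and 2.18e-06), as were LIFR, OSMR, STAT3 and SOCS3. Its part in their results was not tested. In RNA of whole flasks, fewer cells of a type and less RNA per cell cannot be told apart. A pair of libraries stood apart from the others of their condition. In D1 replicate 2, 110 of the 9490 genes tested differed by over 1 on the log2 scale from the mean of the other flasks, and in D20+ TGF-β replicate 3, 116 did, whereas the other 10 libraries had between 0 and 17 such genes. Both libraries also held extreme values of several of the 9 genes, and results that rest on them are given with and without them.

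The sequences before the transcription start site of IL11 and the first and second start sites of LIFR are shown. IL11 was the ligand, and LIFR the receptor, whose levels differed most between D20+ TGF-β and D20 by the test on filtered genes. Each is the 250 bases before the start, 5′ to 3′ on the strand of the gene, from RefSeq on GRCh38.p14. The counts were made on GRCh37, and no coordinate was carried from one build to the other. Capitals mark a match to TGANTCA, the motif of AP-1, in IL11 or to TTCNNNGAA, a STAT motif, in LIFR. Both motifs read the same on either strand.
IL11, chr19:55370464-55370713, minus strand: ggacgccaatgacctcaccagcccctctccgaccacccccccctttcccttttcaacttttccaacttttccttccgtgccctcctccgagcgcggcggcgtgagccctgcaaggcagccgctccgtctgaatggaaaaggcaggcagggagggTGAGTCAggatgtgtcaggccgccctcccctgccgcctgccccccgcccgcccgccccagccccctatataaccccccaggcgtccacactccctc
LIFR, first start site, chr5:38595406-38595655, minus strand: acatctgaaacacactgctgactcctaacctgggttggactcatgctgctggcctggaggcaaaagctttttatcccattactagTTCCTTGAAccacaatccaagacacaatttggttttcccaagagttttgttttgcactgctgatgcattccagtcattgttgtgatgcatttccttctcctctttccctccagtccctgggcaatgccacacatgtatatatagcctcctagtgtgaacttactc
LIFR, second start site, chr5:38557468-38557717, minus strand: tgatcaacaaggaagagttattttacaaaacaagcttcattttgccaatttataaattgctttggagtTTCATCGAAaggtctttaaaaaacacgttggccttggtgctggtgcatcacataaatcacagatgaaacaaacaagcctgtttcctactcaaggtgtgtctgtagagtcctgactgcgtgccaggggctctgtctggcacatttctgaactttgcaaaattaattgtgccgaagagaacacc
RefSeq windows were found for 7 of the 9 genes, 10 windows in all, and not for LIF and SOCS2. The AP-1 match TGAGTCA lay at bases -96 to -90 from the start of IL11. The STAT matches lay at bases -165 to -157 (TTCCTTGAA) and -182 to -174 (TTCATCGAA) from the first and second starts of LIFR. No other window held either motif, the SOCS3 windows and that of a further LIFR start site included. The latter is not shown, so that the LIFR windows shown are those with a match. Of 35116 windows of the same length in the whole table, 6.57% held the STAT motif and 6.57% the AP-1 motif, so that a match is a description of the letters only.

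Of the 9 genes, 8 were above the filter of 10 cpm in at least 6 of the 12 libraries and were tested by the quasi-likelihood F-test of edgeR over 9490 genes, a gene being called at a Benjamini-Hochberg adjusted p under 0.01. SOCS2 reached 10 cpm in 6 libraries, all of them untreated, so that a difference between treated and untreated flasks was built into its passing. IL6 reached it in 2 libraries and was tested in the same fit without the filter, over 20434 genes. On simulated counts that fit made 27 calls in a comparison without change, where the filtered fit made 0. For IL6 and other genes below the filter, the adjusted p over the 13768 genes kept by filterByExpr, which made 0 such calls, is therefore given as well, and a change is stated only where both called it. Without a filter 8.3, 17.1 and 21.2% of all genes tested were called at D1+ TGF-β against D1, D20+ TGF-β against D20 and D20+ TGF-β against D1+ TGF-β, and with filterByExpr 10.9, 24.4 and 30.5%. For the difference between the responses of the 2 days these shares were 6.43 and 8.04%.

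Per kilobase of exon, IL6ST had the highest level of the 9 genes in each condition, from 66.6 ± 9.52 cpm per kb at D20+ TGF-β to 89.7 ± 3.08 at D1+ TGF-β. IL6 had the lowest mean level at D1, D1+ TGF-β and D20, from 1.05 ± 0.457 to 1.62 ± 0.422 cpm per kb, and SOCS2 the lowest at D20+ TGF-β, with 1.17 ± 0.123. Among the ligands, LIF was the most abundant per kilobase in each condition, with 40.5 ± 6.82 cpm per kb at D1 against 6.31 ± 2.47 for IL11. Among the receptors, OSMR was above LIFR in each condition, with 49.1 ± 3.99 against 14.2 ± 0.926 cpm per kb at D20.

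For D1+ TGF-β against D1, which addresses the early response, 3 of the 8 genes tested were called, against 13.4% of all genes tested (6.89% higher, 6.5% lower). LIFR and SOCS3 fell, as did SOCS2, for which a difference was built into its passing the filter. Of the 8 genes, 0 were called higher, where 1 (IL11) had an unadjusted p under 0.05, DESeq2 called 1 (IL11) and limma-voom 0. For D20+ TGF-β against D20, which addresses long treatment apart from time in culture, 5 of 8 were called, against 27.5% of all genes (12.8% higher, 14.7% lower). IL11 rose, and LIFR, OSMR, STAT3 and SOCS3 fell. Between the treated conditions 4 of 8 were called, against 34.8% of all genes (17.2% higher, 17.7% lower), with STAT3 and SOCS3 higher and IL11 and IL6ST lower at D20+ TGF-β. Between the untreated conditions 6 of 8 were called, against 36.4% of all genes (18.9% higher, 17.6% lower), with LIFR, OSMR, STAT3 and SOCS3 higher and IL11 and SOCS2 lower at D20. The 3 flasks of one condition did not overlap those of the other for 7, 7, 5 and 7 of the 8 genes in these comparisons, in the same order, against 36.4, 58.4, 63.2 and 55.6% of all genes. The median log2 fold change of the 8 genes was -0.36 at D1 and -0.75 at D20 for TGF-β against untreated, beside -0.02 and 0.01 over all genes tested. SOCS2 is counted among the 7 in both TGF-β comparisons and in the medians, although its difference was built into its passing the filter. Comparisons that share a condition are not independent of each other.

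**Figure D1:**
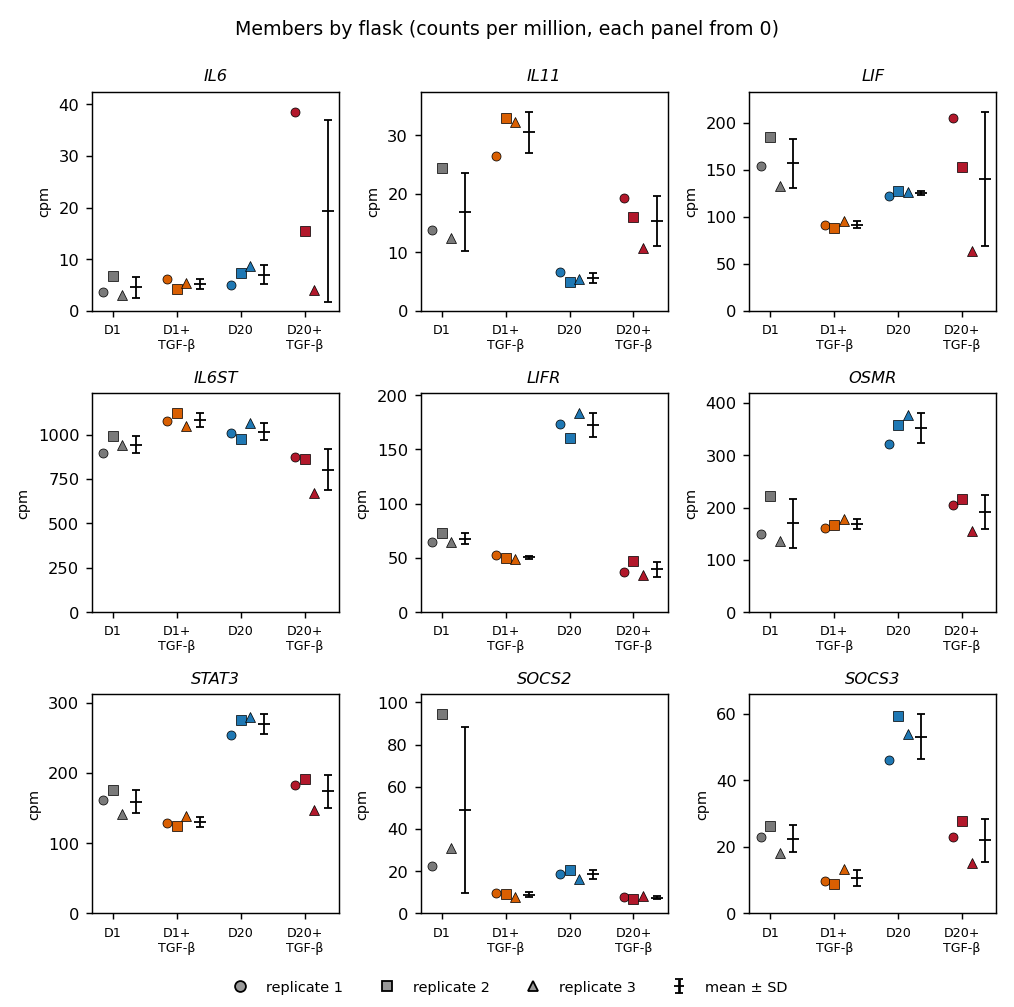
Level of each of the 9 genes in cpm (vertical axes, each from 0) in the 3 flasks of each condition (horizontal axes), with symbols for the replicates and bars for mean ± SD. LIFR, OSMR, STAT3 and SOCS3 were highest at D20, SOCS2 had a single high flask at D1 (94.3 cpm), and IL6 and LIF were spread widely at D20+ TGF-β.

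IL11 encodes interleukin-11, a ligand that signals through its own α receptor and gp130. Its levels were 13.8, 24.5 and 12.4 cpm in the D1 flasks and 26.5, 32.9 and 32.2 at D1+ TGF-β, and 6.57, 4.92 and 5.41 at D20 and 19.3, 16.0 and 10.8 at D20+ TGF-β. Every flask with TGF-β was above every untreated flask of the same day, although at D1 the margin between D1 replicate 2 and the lowest treated flask was small. At D20 the level with TGF-β was 2.80-fold that without it (log2 1.48 ± 0.27 SE, adjusted p = 7.09e-04). At D1 the difference was 0.84 ± 0.23 on the log2 scale and was not called (adjusted p = 0.0176). On all 12 libraries it was called by DESeq2 (adjusted p = 0.00258) and by edgeR without a gene filter (adjusted p = 0.00302). Without D1 replicate 2 it was 1.24 (adjusted p = 3.10e-04), and without D20+ TGF-β replicate 3 it was 0.84 (adjusted p = 0.00662). The responses of the 2 days were not shown to differ (D20 minus D1, log2 0.64 ± 0.36, adjusted p = 0.224). On day 20 IL11 was lower than on day 1 in untreated cells (log2 -1.61 ± 0.27, adjusted p = 2.49e-04) and in treated cells (log2 -0.97 ± 0.24, adjusted p = 0.00396), so that the mean at D20+ TGF-β, 15.4 ± 4.31 cpm, was near that at D1, 16.9 ± 6.62. The lower level at D20+ TGF-β against D1+ TGF-β was no longer called without any one of 4 libraries, D1+ TGF-β replicates 2 and 3 (adjusted p = 0.0199 and 0.0142) and D20+ TGF-β replicates 2 and 3 (0.0127 and 0.011).

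LIF encodes leukemia inhibitory factor, the ligand that pairs gp130 with LIFR. Its levels were 154, 185 and 132 cpm at D1 and 91.4, 87.9 and 95.4 at D1+ TGF-β, without overlap. At D20 they were 122, 127 and 126 cpm, and at D20+ TGF-β 205, 153 and 63.5, with flasks both above and below all of D20. LIF was called in none of the comparisons by the quasi-likelihood test. The log2 difference was -0.78 ± 0.28 at D1 (adjusted p = 0.0576), 0.17 ± 0.28 at D20 (adjusted p = 0.654), 0.63 ± 0.28 for D20+ TGF-β against D1+ TGF-β (adjusted p = 0.0771) and -0.32 ± 0.28 for D20 vs D1 (adjusted p = 0.350), with an unadjusted p under 0.05 for 2 of these 4. DESeq2 and limma-voom on the 12 libraries called 0 of the 4. The D1 difference was called by edgeR without a gene filter (log2 -0.80, adjusted p = 0.00963) and with the 6 libraries of D1 alone (adjusted p = 0.00159). Several calls turned on D20+ TGF-β replicate 3, which stood apart over all genes. Without it, LIF was lower at D1+ TGF-β vs D1 (log2 -0.78, adjusted p = 2.67e-04) and higher at D20+ TGF-β vs D20 (log2 0.52, adjusted p = 0.00656) and D20+ TGF-β against D1+ TGF-β (log2 0.98, adjusted p = 3.76e-05), and the responses of the 2 days differed by 1.30 (adjusted p = 1.78e-04, against 0.95 ± 0.39 and 0.103 with it). Without D20+ TGF-β replicate 1 the D20 difference was -0.20 (adjusted p = 0.569), so that its direction rested on single flasks.

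IL6 encodes interleukin-6, which binds IL6R and gp130. Its levels were 3.72, 6.79 and 3.10 cpm at D1, 6.16, 4.19 and 5.37 at D1+ TGF-β, 5.04, 7.30 and 8.65 at D20, and 38.6, 15.4 and 4.04 at D20+ TGF-β. The D20+ TGF-β flasks spanned 9.55-fold, from 43 counts in replicate 3 to 688 in replicate 1, and overlapped those of each other condition. The fit without a filter gave a log2 difference of 1.51 ± 0.39 for D20+ TGF-β vs D20 (adjusted p = 0.00496) and 1.93 ± 0.42 for D20+ TGF-β against D1+ TGF-β (adjusted p = 8.12e-04). With filterByExpr these values were 1.49 ± 0.51 (adjusted p = 0.0339) and 1.93 ± 0.55 (adjusted p = 0.0108), so that no change is stated. Without D20+ TGF-β replicate 1 the first difference was 0.45 (adjusted p = 0.378), and without D20 replicate 1 it was 1.31 (adjusted p = 0.0182). The second was 0.87 without D20+ TGF-β replicate 1 (adjusted p = 0.0528) and 1.76 without D1+ TGF-β replicate 2 (adjusted p = 0.0128). Without both libraries that stood apart, D20+ TGF-β replicate 3 being the flask with the lowest level, the D20 difference was 1.98 with filterByExpr (adjusted p = 5.28e-07), so that the call turned on which flasks were kept.

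IL6ST encodes gp130, the chain that the family shares. Its levels were 894, 994 and 943 cpm at D1, 1075, 1122 and 1048 at D1+ TGF-β, 1008, 974 and 1068 at D20 and 875, 864 and 671 at D20+ TGF-β. The D1+ TGF-β flasks lay above those of D1, and the D20+ TGF-β flasks below those of D20. Of these small differences, edgeR's test called that of D20+ TGF-β against D1+ TGF-β, at a log2 of -0.43 ± 0.10 (adjusted p = 0.00254), and it was not called without D1+ TGF-β replicate 2 (adjusted p = 0.0143). The log2 differences were 0.20 ± 0.10 at D1 (adjusted p = 0.159) and -0.34 ± 0.10 at D20 (adjusted p = 0.0122), and that between the responses was -0.54 ± 0.14 (adjusted p = 0.0134). On the same 12 libraries the D20 difference was called by DESeq2 (adjusted p = 0.00406) and limma-voom (adjusted p = 0.00977), and that between the responses by DESeq2 (adjusted p = 0.00182). Without D1 replicate 2 the D20 difference was -0.32 (adjusted p = 0.00874) and that between the responses -0.56 (adjusted p = 0.00608), and without D20+ TGF-β replicate 3 the latter was -0.42 (adjusted p = 0.00981).

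LIFR encodes the receptor chain for LIF, and it gave the difference between the days with the smallest adjusted p of the 8 genes. Its levels were 64.7, 73.4 and 65.1 cpm at D1 and 52.2, 49.6 and 49.3 at D1+ TGF-β, and 173, 161 and 183 at D20 and 37.2, 46.9 and 34.2 at D20+ TGF-β. The order of the conditions was D20, D1, D1+ TGF-β and D20+ TGF-β, with no overlap between neighbours. At D20 the untreated level was 4.38-fold the treated one (log2 -2.13 ± 0.10, adjusted p = 7.40e-09), whereas at D1 the log2 difference was -0.43 ± 0.10 (adjusted p = 0.00775). The responses differed by -1.70 ± 0.14 (adjusted p = 7.77e-06), the only difference of responses called among the 8 genes, against 10.4% of all genes tested, and it was called under every alternative tried. The level in untreated cells was 2.55-fold higher at D20 than at D1 (log2 1.35 ± 0.10, adjusted p = 2.79e-07), while between the treated conditions the log2 difference was -0.35 ± 0.10 (adjusted p = 0.0127). The latter was called on all 12 libraries by DESeq2 (adjusted p = 0.00665) and by edgeR with filterByExpr (adjusted p = 0.00617) or no gene filter (adjusted p = 0.00344). It was also called without D1 replicate 2 (adjusted p = 0.00659) and without D20+ TGF-β replicate 2 (log2 -0.49, adjusted p = 0.00119). The small D1 response was called in 10 of 23 alternatives, and leaving out any single library but D20+ TGF-β replicates 2 and 3 ended the call (log2 -0.36 to -0.46, adjusted p = 0.0111 to 0.0394).

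**Figure D2:**
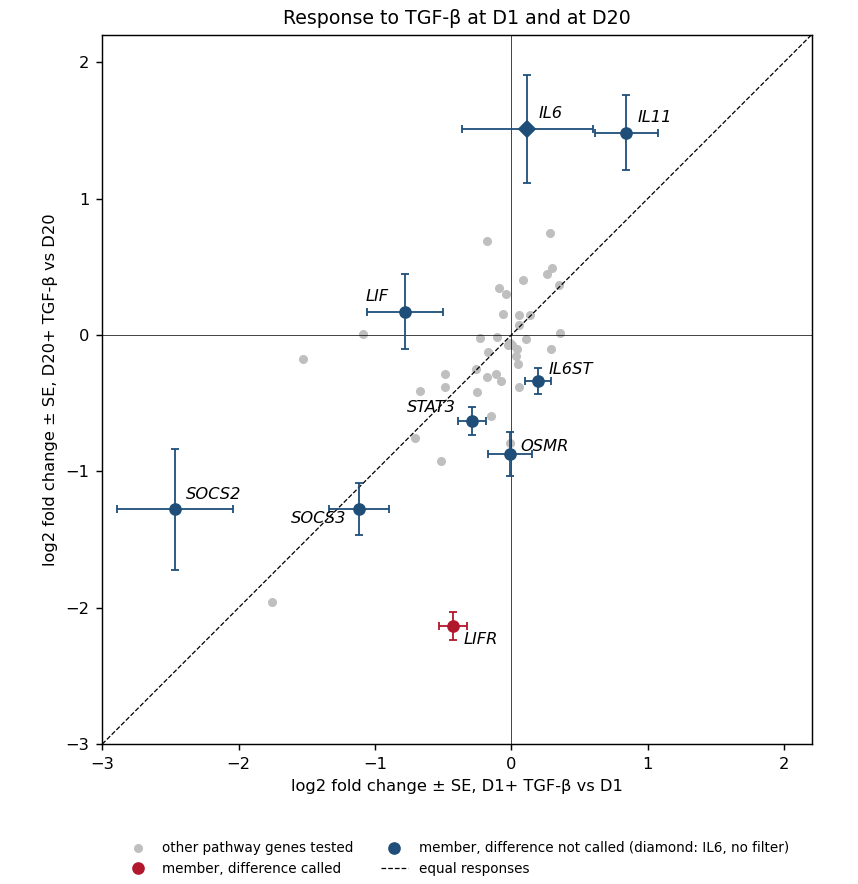
Log2 fold change with TGF-β at D1 (horizontal axis) and at D20 (vertical axis), each ± SE, for the 9 genes (labelled) and the 40 other genes of the pathway that were tested (grey). LIFR lies farthest below the dashed line of equal responses, at -0.43 and -2.13, whereas SOCS3 lies near it, at -1.12 and -1.27.

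OSMR encodes the oncostatin M receptor. Its levels were 150.3, 223 and 136 cpm at D1 and 161, 167 and 178 at D1+ TGF-β, with overlap, and 321, 358 and 377 at D20 and 205, 216 and 155 at D20+ TGF-β, without overlap. Untreated cells at D20 stood above all other flasks. OSMR was lower with TGF-β at D20 (log2 -0.88 ± 0.16, adjusted p = 7.38e-04), and higher at D20 than at D1 in untreated cells (2.08-fold, log2 1.05 ± 0.16, adjusted p = 1.23e-04). The D1 difference was -0.01 ± 0.16 (adjusted p = 0.965), and without D1 replicate 2, the highest D1 flask, it was 0.25 (adjusted p = 0.127). The responses differed by -0.86 ± 0.23, which was not called (adjusted p = 0.0165), although DESeq2 (adjusted p = 0.00216) and edgeR without a gene filter (adjusted p = 0.00341) called it, and by -1.10 without D1 replicate 2 (adjusted p = 2.43e-04). Between the treated conditions the log2 difference was 0.19 ± 0.16 (adjusted p = 0.344).

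STAT3, the transcription factor to which these receptors signal, had levels of 161, 175 and 141 cpm at D1, 128, 124 and 139 at D1+ TGF-β, 253, 276 and 279 at D20 and 183, 192 and 147 at D20+ TGF-β. The flasks with TGF-β lay below the untreated ones on both days without overlap, and the D20 flasks were the highest. STAT3 fell with TGF-β at D20 (log2 -0.63 ± 0.10, adjusted p = 2.76e-04), while the D1 difference, -0.29 ± 0.10, was not called (adjusted p = 0.0561), and the responses were not shown to differ (log2 -0.34 ± 0.15, adjusted p = 0.112). It was higher at D20 than at D1 in untreated cells (1.70-fold, log2 0.76 ± 0.10, adjusted p = 4.03e-05). In treated cells the difference was 0.42 ± 0.10 (adjusted p = 0.00427), a call that was lost without any one of D1+ TGF-β replicates 1 and 2 or D20+ TGF-β replicates 1 and 2 (adjusted p = 0.0185, 0.0243, 0.0188 and 0.0247).

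SOCS3 encodes the inhibitor that STAT3 induces and that binds gp130. Its levels were 22.8, 26.4 and 18.3 cpm at D1 and 9.77, 8.82 and 13.3 at D1+ TGF-β, and 46.1, 59.4 and 54.0 at D20 and 22.9, 27.9 and 15.2 at D20+ TGF-β. On each day the flasks with TGF-β lay below the untreated flasks. The untreated level was 2.17-fold the treated one at D1 (log2 -1.12 ± 0.22, adjusted p = 0.00227) and 2.42-fold at D20 (log2 -1.27 ± 0.19, adjusted p = 1.60e-04). The difference between these responses, -0.16 ± 0.29, was not called (adjusted p = 0.743). SOCS3 was also higher at D20 than at D1, by 2.36-fold in untreated cells (log2 1.24 ± 0.19, adjusted p = 1.26e-04) and 2.12-fold in treated cells (log2 1.08 ± 0.22, adjusted p = 0.00120). The D1 response was not called without D1+ TGF-β replicate 1 (adjusted p = 0.0129) or replicate 2 (adjusted p = 0.0229), and the difference between treated conditions was not called without D1+ TGF-β replicate 2 (adjusted p = 0.0116).

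SOCS2 encodes a relative of SOCS3 known as an inhibitor of growth hormone signalling. Its levels were 22.5, 94.3 and 30.8 cpm at D1 and 9.65, 9.43 and 7.70 at D1+ TGF-β, and 18.8, 20.5 and 16.3 at D20 and 7.85, 6.65 and 8.17 at D20+ TGF-β. All 6 flasks with TGF-β lay below all 6 untreated flasks. As SOCS2 passed the filter through its untreated flasks alone, this separation was built in, and the TGF-β comparisons below share that limit. D1 replicate 2 was 3.54-fold the mean of the other D1 flasks. SOCS2 fell with TGF-β at D1 (log2 -2.47 ± 0.42, adjusted p = 9.15e-04), and by 1.56 on the log2 scale without D1 replicate 2 (adjusted p = 8.89e-06). At D20 the log2 difference was -1.28 ± 0.44 and was not called (adjusted p = 0.0334), whereas it was called without a gene filter (adjusted p = 0.00524), with the 6 libraries of D20 alone (adjusted p = 1.34e-04) and without D1 replicate 2 (log2 -1.26, adjusted p = 1.28e-05). The responses were not shown to differ (log2 1.19 ± 0.62, adjusted p = 0.191). In untreated cells SOCS2 was lower at D20 than at D1 (log2 -1.43 ± 0.38, adjusted p = 0.00723), a difference of -0.54 without D1 replicate 2 (adjusted p = 0.00517), and the call was lost with limma-voom (adjusted p = 0.0243), with the 6 untreated libraries alone (adjusted p = 0.0231) and without any one of the D20 and D1+ TGF-β flasks (adjusted p = 0.011 to 0.0332).

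**Figure D3:**
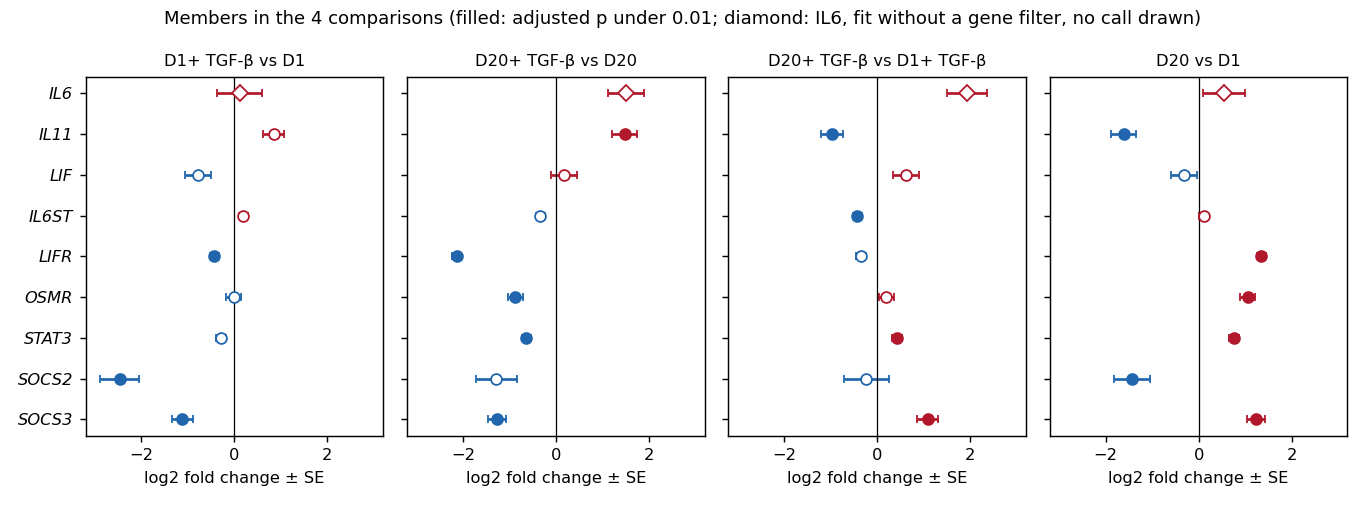
Log2 fold change ± SE (horizontal axes) of each of the 9 genes (rows) in the 4 comparisons (panels), from edgeR's quasi-likelihood fit. Red marks a value above 0 and blue one below it, filled circles mark an adjusted p under 0.01, and IL6 is drawn as an open diamond from the fit without a gene filter. SOCS3 and LIFR are left of 0 in both TGF-β comparisons and right of 0 for D20 vs D1.

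Levels across the 12 libraries were compared by Pearson's r of log2 cpm, as a description, since the libraries share 4 conditions and D20 flasks share a source. The genes most like STAT3 were SLC4A4 (r = 0.989), RFTN1 (0.989) and GABARAPL1 (0.988), those most like SOCS3 were MMD (0.992), HRH1 (0.988) and RBPMS (0.987), and those most like LIFR were NABP1 (0.989), STS (0.987) and BLCAP (0.986). OSMR was most like USP46 (0.990), ARSB (0.987) and SLC2A1 (0.982), which encodes the glucose transporter GLUT1. IL6 was most like TNIP1 (0.953), NFKB1 (0.951) and NFKBIZ (0.947), genes of the NF-κB system. Its level was 38.6 and 15.4 cpm in D20+ TGF-β replicates 1 and 2 and at most 8.65 in any other library. How far its r values rest on those flasks was not tested. IL11 was most like FAM111A (0.986), SYNJ2 (0.975) and ITPRIP (0.970), and SOCS2 was most like TM4SF1 (0.980) and STAMBPL1 (0.972). The closest genes were less like LIF (BDKRB1, a bradykinin receptor, 0.929) and IL6ST (NMD3, 0.911) than those of the other 7. Among the 9 genes themselves, r was highest for STAT3 with SOCS3 (0.975) and lowest for IL11 with SOCS3 (-0.847).

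Of 57 other genes of the pathway, listed by role, 40 were above the filter. Of these, 6 were called at D1+ TGF-β vs D1 (1 higher, 5 lower), 13 in D20+ TGF-β vs D20 (4 higher, 9 lower), 18 in D20+ TGF-β against D1+ TGF-β (14 higher, 4 lower) and 17 in D20 vs D1 (15 higher, 2 lower). As percentages of the 40 these are 15, 32.5, 45 and 42.5, beside 13.4, 27.5, 34.8 and 36.4% of all genes tested, so that the shares were near the background in the TGF-β comparisons.

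Among the ligands, 1 of 7 was above the filter, CTF1, which encodes cardiotrophin 1. It was higher at D20 than at D1 in untreated cells (15.7 ± 1.92 against 8.81 ± 1.87 cpm, log2 0.83 ± 0.16, adjusted p = 9.07e-04) and in treated cells (log2 1.05 ± 0.17, adjusted p = 2.79e-04). The CTF1 mean lay below the 10 cpm of the filter at D1 and above it at D20. A difference between the days was therefore partly built into its passing. CLCF1, which encodes a ligand of the same family and was below the filter, had 8.28, 7.67 and 8.53 cpm at D20 and 6.45, 7.26 and 5.73 at D20+ TGF-β. These flasks did not overlap, and the log2 difference of -0.32 ± 0.16 was not called (adjusted p = 0.152 without a filter and 0.0757 with filterByExpr).

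Of the other receptors, IL6R, the α receptor for IL-6, had 12.0, 10.1 and 10.97 cpm at D1, 3.14, 2.96 and 3.85 at D1+ TGF-β, 29.3, 36.1 and 37.8 at D20 and 10.6, 10.9 and 4.79 at D20+ TGF-β. It fell with TGF-β at D1 (log2 -1.76 ± 0.26, adjusted p = 3.21e-04) and at D20 (log2 -1.96 ± 0.20, adjusted p = 7.17e-06), and it was higher at D20 than at D1 in untreated cells (log2 1.65 ± 0.20, adjusted p = 1.58e-05) and in treated cells (log2 1.45 ± 0.27, adjusted p = 6.20e-04). Every untreated flask reached the 10 cpm of the filter, and no D1+ TGF-β flask did. A difference between treated and untreated flasks was therefore partly built into the passing of IL6R. IL31RA, which forms the receptor for IL-31 with OSMR, had 2.09, 1.12 and 1.92 cpm at D20 and 6.50, 7.86 and 9.30 at D20+ TGF-β. It rose in both fits (log2 2.21 ± 0.26, adjusted p = 2.23e-07 without a filter and 3.53e-05 with filterByExpr), in the opposite direction to OSMR.

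Of the Janus kinases, the 3 above the filter, JAK1, JAK2 and TYK2, gave 0 calls in 12 tests (3 genes in 4 comparisons) by edgeR, 6 of them with an unadjusted p under 0.05, and 0 by DESeq2 and limma-voom. By edgeR 13.4, 27.5, 34.8 and 36.4% of all genes tested were called in the 4 comparisons, in the order used above. With 3 genes, 0 calls does not show that the kinases were unchanged. JAK3, below the filter, had 7.99, 9.01 and 7.99 cpm at D20 and 2.41, 2.42 and 1.60 at D20+ TGF-β. JAK3 fell with TGF-β at D20 in both fits (log2 -1.92 ± 0.22, adjusted p = 1.36e-07 and 9.89e-06). Of the other STAT genes, STAT6 fell with TGF-β at D1 (log2 -0.67 ± 0.08, adjusted p = 3.71e-05) and at D20 (log2 -0.41 ± 0.08, adjusted p = 6.75e-04). STAT5A had 3.72, 5.42 and 2.85 cpm at D1 and 1.63, 1.00 and 1.05 at D1+ TGF-β, and 6.57, 7.45 and 7.45 at D20 and 6.45, 7.86 and 5.54 at D20+ TGF-β. It fell at D1 (log2 -1.79 ± 0.27, adjusted p = 2.23e-05 without a filter and 4.58e-04 with filterByExpr), whereas its flasks overlapped at D20 (log2 -0.11 ± 0.19, adjusted p = 0.764). STAT4 was at most 1.79 cpm in any flask and was not among the filterByExpr genes.

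Of 13 other inhibitors, 9 were above the filter. SOCS1, below it, had 7.69, 4.90 and 7.04 cpm at D1 and 1.74, 2.40 and 2.80 at D1+ TGF-β, and fell in both fits (log2 -1.49 ± 0.22, adjusted p = 2.21e-05 and 5.88e-04). At D20 its levels were 10.6, 10.95 and 12.3 cpm and at D20+ TGF-β 10.1, 9.07 and 6.20, a log2 difference of -0.39 ± 0.18 that was not called (adjusted p = 0.120). PTPN1, a tyrosine phosphatase that acts on Janus kinases, was lower with TGF-β at D20 (150.4, 150.4 and 146 cpm against 85.3, 86.6 and 86.6, log2 -0.79 ± 0.07, adjusted p = 2.45e-06), with a D1 difference of -0.01 ± 0.07 (adjusted p = 0.936). SHC1, an adaptor, was lower at D20 by a log2 of -0.59 ± 0.07 (adjusted p = 2.80e-05), and ADAM10, a membrane protease that can shed IL6R, was lower at D1 (log2 -0.52 ± 0.07, adjusted p = 2.24e-04) and at D20 (log2 -0.92 ± 0.07, adjusted p = 6.38e-07).

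**Figure D4:**
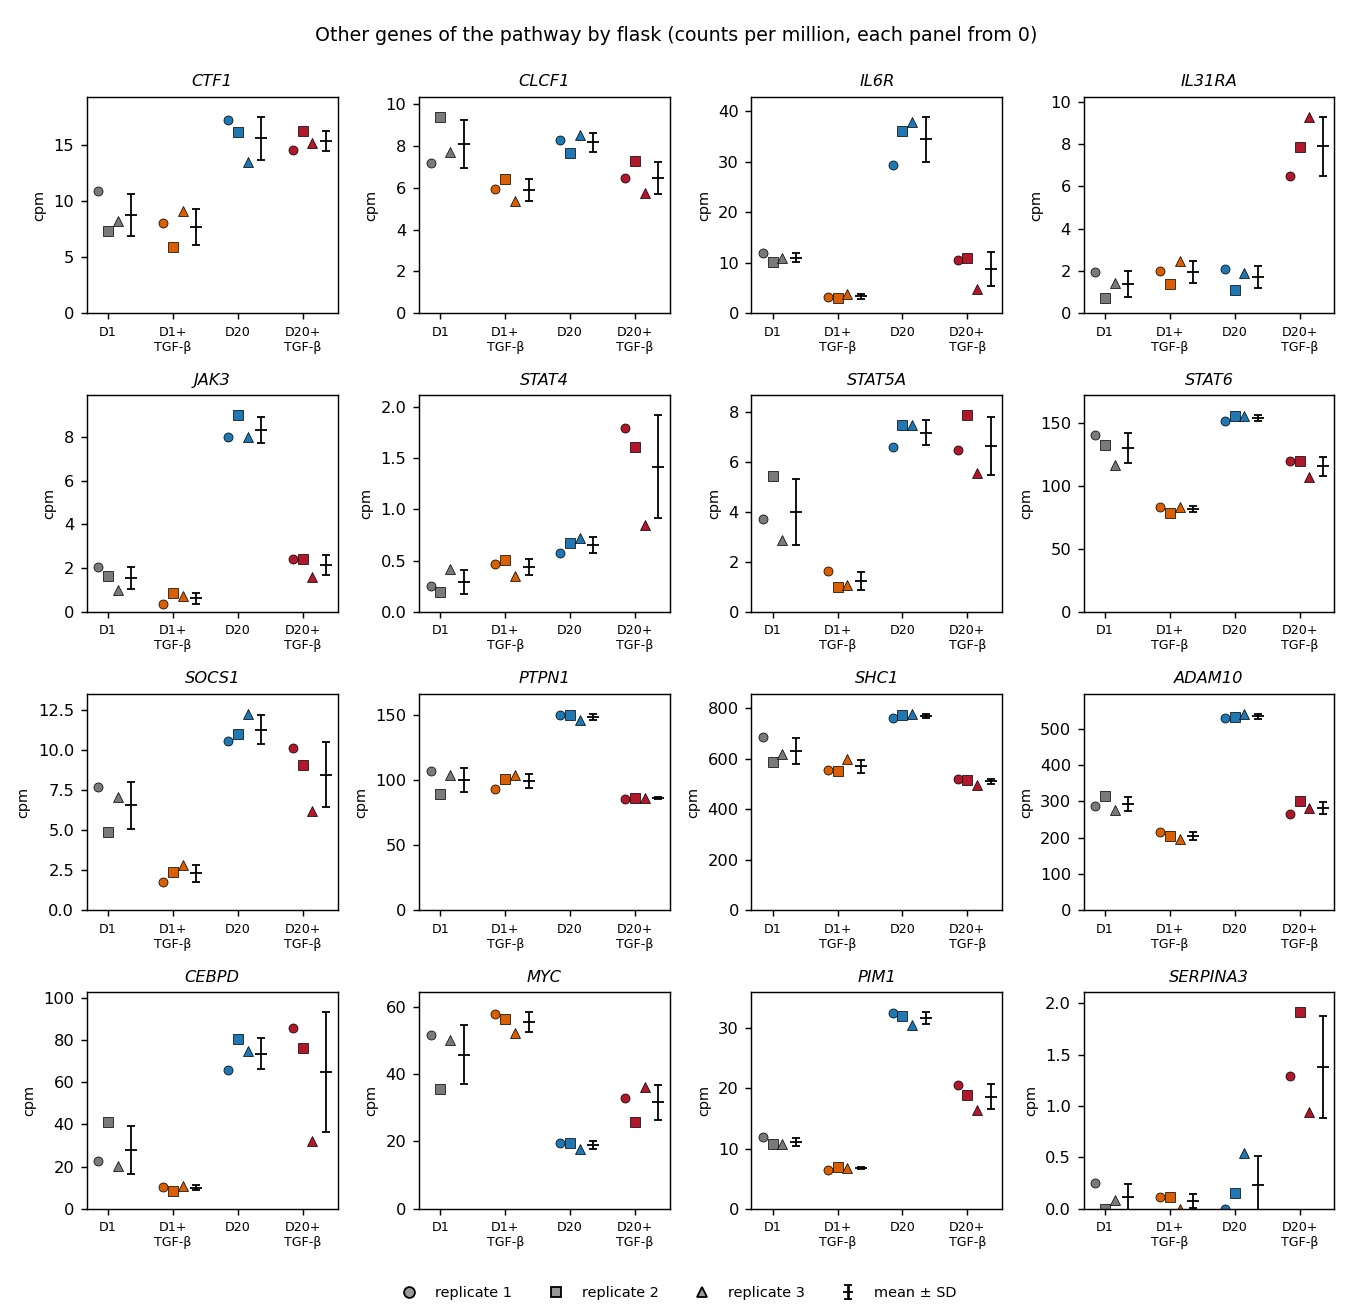
Level of 16 other genes of the pathway in cpm (vertical axes, each from 0, where bars that reach below are cut) in the 3 flasks of each condition, with bars for mean ± SD. IL6R, PIM1 and ADAM10 were lower with TGF-β on both days, IL31RA was highest at D20+ TGF-β, and JAK3 was highest at D20.

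Of 14 known STAT3 target genes other than SOCS3, 13 were above the filter, and their calls went both ways. PIM1, which encodes a kinase, had 11.8, 10.7 and 10.7 cpm at D1, 6.51, 6.98 and 6.77 at D1+ TGF-β, 32.5, 32.0 and 30.5 at D20 and 20.5, 19.0 and 16.4 at D20+ TGF-β. As for SOCS3, its levels were lower with TGF-β at D1 (log2 -0.71 ± 0.11, adjusted p = 4.84e-04) and at D20 (log2 -0.75 ± 0.09, adjusted p = 2.56e-05). MYC, which encodes a transcription factor of cell growth, was in the opposite direction at D20, with 19.5, 19.7 and 17.7 cpm untreated and 32.9, 25.9 and 36.2 with TGF-β (log2 0.74 ± 0.15, adjusted p = 0.00112). CEBPD, which encodes the transcription factor C/EBPδ, had 22.5, 41.0 and 20.2 cpm at D1 and 10.2, 8.60 and 10.97 at D1+ TGF-β (log2 -1.53 ± 0.35, adjusted p = 0.00674), and its flasks overlapped between D20 and D20+ TGF-β. SERPINA3, an acute phase gene, was at most 1.92 cpm in any flask, and was higher at D20+ TGF-β than at D20 in both fits (log2 2.33 ± 0.58, adjusted p = 0.00295 and 0.00774). Of the 13, 2 were lower at D1 (CEBPD and PIM1), and at D20 CEBPB, MCL1 and MYC were higher and PIM1 and SBNO2 lower, beside 13.4 and 27.5% of all genes called. The median log2 fold change of the 13 with TGF-β was -0.18 at D1 and -0.02 at D20.

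Genes that overlap on the opposite strand could add counts to some of these genes, since the use of strand in counting was not stated in the sources used here. In the GENCODE annotation of GRCh37, such genes lie over IL6 (chr7:22765503-22771621, IL6-AS1 and STEAP1B), LIF (chr22:30636442-30642748, LIF-AS1 and LIF-AS2), LIFR (chr5:38474770-38608456, LIFR-AS1), OSMR (chr5:38845960-38945698, RICTOR), SOCS2 (chr12:93963590-93977263, SOCS2-AS1) and IL6ST (chr5:55230923-55290850, 3 genes without a symbol). None lies over IL11 (chr19:55875750-55881831), STAT3 (chr17:40465342-40540558) or SOCS3 (chr17:76352859-76356158). Exact permutation tests of 3 flasks against 3 have a smallest p of 0.1 and were therefore not run.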

How the data were processed

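RNA of 12 flasks of WI-38 cells, 3 per condition, was sequenced in paired ends from libraries of a directional kit, each read on 4 lanes. The authors trimmed the reads with Trimmomatic, mapped them to hg19 with Rsubread, and deposited raw counts per gene and lane without normalization or filter. They also deposited log2 cpm from limma's voom for 9412 genes, used here for symbols and as an alternative. The counting program, its annotation and its use of strand were not given in the sources used here.

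The 4 lanes of a library were summed, as they repeat the same RNA, giving 8674488 to 18286197 counts (median 11613084.5). No depth-based interval is given, as the SDs and SEs between flasks include counting error. Columns were matched to conditions and replicates by name, and 0 were left unused. Genes that reached 10 cpm in 6 or more libraries (9490 of 20434 with a count) were fitted in R 4.3.3 with edgeR 4.0.16 (TMM, quasi-likelihood, 1 mean per condition, prior df 5.50), with Benjamini-Hochberg adjustment over all of them and a threshold of 0.01. SEs were obtained by dividing the absolute log2 fold change by the square root of F. Log2 cpm used a prior count of 2. Genes below the filter were fitted without it (prior df 18.1) and, after that fit had made false calls on simulated counts, also with filterByExpr (prior df 6.44).

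On simulated counts of D20+ TGF-β vs D20, the filtered fit recovered 97% of 100 genes changed by a log2 of 1, with 3 false calls among 9490 genes. The fit without a filter recovered 92%, with 29 false calls among 19901 genes, and that with filterByExpr 87%, with 4 among 13702. For the difference of responses the filtered fit recovered 89%, with 5 false calls.

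The members, the lists of other pathway genes and of cell type markers, and the tests were chosen with earlier results of these data known. Named are all 9 members, other pathway genes called in a comparison with a log2 fold change of at least 1, the gene of each role list with the smallest p in D20+ TGF-β vs D20, and for each member the 3 genes with the highest r, of which 1 each is given for LIF and IL6ST. Of the genes these rules and lists take in, 2 are not reported here. Exon lengths are unions over GENCODE transcripts of GRCh37. The alternatives were DESeq2 1.42.0, limma-voom (limma 3.58.1) on 12 libraries and on 48 lanes, the deposited log2 values, RLE factors or none in place of TMM, filterByExpr or no gene filter, the 6 libraries of a comparison only, each library left out in turn and replicate numbers as a block. Leaving out both libraries that stood apart, and doing so with filterByExpr, was added after seeing the data.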

Additional observations from a re-analysis of the deposited data

Results flagged for a closer look

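The response to TGF-β differed between D20 and D1 by the test of the difference itself for LIFR among the 9 genes, and for PTPN1, GRB2 and SHC1 among the 40 other genes of the pathway above the filter (7.5%, beside 10.4% of all genes tested). All differences are D20 minus D1 on the log2 scale. That of LIFR was -1.70 ± 0.14 (SE), with all 3 treated flasks below all 3 untreated ones on both days.

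PTPN1 differed by -0.78 ± 0.10 (adjusted p = 2.23e-04 by edgeR's quasi-likelihood test), SHC1 by -0.44 ± 0.10 (adjusted p = 0.00787) and GRB2, an adaptor like SHC1, by -0.43 ± 0.08 (adjusted p = 0.00257). The difference was called in 22 of 22 alternatives for PTPN1, 19 for GRB2 and 9 for SHC1.

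Of the genes below the filter, STAT5A differed by 1.68 ± 0.33 (adjusted p = 9.78e-04 without a filter and 0.00496 with filterByExpr), with a lower level at D1+ TGF-β. For IL31RA the difference was 1.75 ± 0.43, called without a filter (adjusted p = 0.00735) but not with filterByExpr (adjusted p = 0.0228), so that no change is stated.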

How the results depend on the processing

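Of 1021 log2 fold changes of the 9 genes under an alternative, 909 kept their direction and their side of the threshold, 52 gained a call, 46 lost it and 14 changed sign. Of the 18 calls among the 8 filtered genes in the 4 comparisons, 11 held under every alternative tried, 5 of them in D20+ TGF-β vs D20. The 11 include the fall of SOCS2 at D1, a difference built into its passing the filter. The cause of the changes below was not tested.

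The counts of the 8 genes called at D1, 3, were 7 with the 48 lanes as samples, 5 without a gene filter and 6 without both libraries that stood apart. For the difference of responses, 1, they were 3 with DESeq2, 5 with the 48 lanes, 2 without a gene filter and 4 without both libraries. Of the 40 other pathway genes, the 48 lanes gave 17, 24, 33, 26 and 15 calls at D1, at D20, for D20+ TGF-β against D1+ TGF-β, D20 vs D1 and the difference of responses (6, 13, 18, 17 and 3 with summed lanes). DESeq2 gave 5 for the difference of responses, and leaving out both libraries gave 13 at D1, 20 at D20 and 10 for that difference. The lanes of a library repeat the same RNA and are not replicates of a condition. Shares of all genes called are not given for the 48 lanes, DESeq2, a replicate block or libraries left out. The counts under those settings therefore have no background beside them and are not read as results about these genes.

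Leaving out each library in turn gave, in that order, 1 to 5, 5 to 7, 0 to 5, 5 to 6 and 1 to 3 of the 8 genes, with 0 for D20+ TGF-β against D1+ TGF-β without D1+ TGF-β replicate 2, and 4 to 8, 8 to 15, 12 to 22, 11 to 18 and 1 to 6 of the pathway genes. Without that flask, 5 of the 8 had an unadjusted p under 0.05, and on all 12 libraries DESeq2 called 5 and limma-voom 4.

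Values that changed sign were near 0 or rested on single flasks. Leaving out each library in turn gave -0.089 to 0.57 for IL6 at D1, -0.20 to 0.52 for LIF at D20, -0.15 to 0.25 for OSMR at D1 and -0.35 to 0.042 for the SOCS3 difference of responses. For OSMR at D1 they were also 0.024 with limma-voom, 0.012 with the 48 lanes, 0.0045 with the 6 libraries, 0.027 on the deposited log2 values and 0.25 without both libraries.

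Replicate numbers were not shown to pair flasks, as the correlation of same-numbered deviations was between -0.223 and 0.0258. With the replicate number as a block, the OSMR difference at D1 was 0.012, and the counts of the 8 genes called were 2, 5, 4, 6 and 1 in the order above. Of the IL6 calls without a filter, that of D20+ TGF-β vs D20 was lost under it (log2 1.24, adjusted p = 0.0192) and that between the treated conditions was kept (log2 1.76, adjusted p = 0.00152). The LIFR call at D1 was lost as well (adjusted p = 0.0123). For IL6, leaving out both libraries without a filter gave a fit with no finite prior df, which is not used.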
